A study of Mus musculus with 14 samples.

Results

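The DNA replication origin and fork genes are 52 protein-coding genes, chosen by name for their place in the licensing of replication origins and the work of the replication fork. All 52 were found among the 54446 genes of the deposited table of liver RNA. The choice went by gene name and set no threshold on any value, but earlier results of these data were known when it was made. They were set out in blocks by role: the 6 subunits of the replicative helicase, 2 helicase relatives, 9 genes of origin recognition and licensing, 7 of helicase activation, 9 of the polymerases and primase, 6 of the sliding clamp and its loader, 3 of single-strand binding, 2 of Okazaki fragment processing, 4 of nucleotide supply and 4 of chromatin and methylation behind the fork. Livers of 8 knockouts, whose genotype combined floxed Mettl3 with Alb-Cre, were set against livers of 6 controls that carried floxed Mettl3 without the recombinase. All 14 animals were C57BL/6 mice of 5 weeks, and each library held total RNA from flash-frozen liver. Alb-Cre is a recombinase under the albumin promoter, so the deletion is aimed at hepatocytes. Whether other cells of the liver, such as bile duct cells, also lost the gene was not measured here. Mettl3 is the enzyme that places m6A, a methyl mark within mRNA. The title of the series names hepatocyte ploidy among its subjects, and the genes below are those that copy the genome in S phase.

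Replication begins where the origin recognition complex binds DNA and, with Cdc6 and Cdt1, loads the ring of Mcm2 to Mcm7 around it. In S phase the kinase of Cdc7 and Dbf4, together with Cdc45 and the GINS complex, turns the loaded ring into a moving helicase, and polymerases, the sliding clamp and its loader follow behind. Adult hepatocytes rarely divide, so most of these genes are known to run low in the grown liver, whereas around weaning many mouse hepatocytes still enter S phase and become polyploid. E2F transcription factors are known to drive many of these genes through sites close to the transcription start.

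Promoter sequence was given for 44 of the 52 genes, as RefSeq windows of 250 bases before to 50 bases after the start on GRCm38.p6. These windows were searched on both strands for an E2F site spelled TTTCCCGC, TTTGGCGC, TTTCGCGC or TTTGCCGC, and for its shorter core, which is any of these without its first T. The core was chosen after windows had been read, it lies within every longer match, and a palindromic stretch can match on both strands. The longer site was present in 18 of 44 replication genes (40.9%), against 2.61% of the 27018 genes with a window and 3.75% of the genes tested below. The core was present in 30 of 44 (68.2%), against 10.9% of all genes with a window and 16.1% of tested genes with one. A gene with several windows was counted if any of them matched. Among the replication genes that rose in knockouts, 12 of the 14 with a window held the core, and among those not called 17 of 26 did. None of the 3 genes that fell held a whole core within its window. For comparison, CCAAT, the letters bound by the factor NF-Y, was present in 61.4% of the members with a window, 41.1% of all such genes and 42.3% of those tested. The cell cycle element TTTGAA was present in 18.2% of the members with a window, 20.2% of all such genes and 16.7% of those tested. The windows of 4 genes are printed because the largest changes in either direction turn on these genes. Those of Mcm6, Uhrf1 and Chaf1a belong to the 3 genes with the largest called changes among those with a window, and the window of Mcm10, the gene that fell most, was chosen after its values were seen. Capitals mark the core on either strand, and each window is written 5′ to 3′ on the strand of its gene: Mcm6 from chr1:128359656-128359955 (minus strand), Uhrf1 from chr17:56303087-56303386 (plus strand, 1 of 2 windows given for it), Chaf1a from chr17:56040166-56040465 (plus strand) and Mcm10 from chr2:5012742-5013041 (minus strand).
Mcm6: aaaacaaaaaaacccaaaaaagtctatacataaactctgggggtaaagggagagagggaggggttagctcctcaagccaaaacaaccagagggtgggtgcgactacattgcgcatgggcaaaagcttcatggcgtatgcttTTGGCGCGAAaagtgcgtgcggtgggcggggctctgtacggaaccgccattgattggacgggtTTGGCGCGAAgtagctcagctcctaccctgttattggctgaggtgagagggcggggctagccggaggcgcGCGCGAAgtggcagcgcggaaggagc
Uhrf1: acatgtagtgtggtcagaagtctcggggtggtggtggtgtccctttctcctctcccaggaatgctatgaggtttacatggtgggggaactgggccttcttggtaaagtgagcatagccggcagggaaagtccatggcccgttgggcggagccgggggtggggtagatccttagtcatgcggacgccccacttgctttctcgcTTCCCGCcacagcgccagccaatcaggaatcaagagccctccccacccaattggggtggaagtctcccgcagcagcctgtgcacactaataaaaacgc
Chaf1a: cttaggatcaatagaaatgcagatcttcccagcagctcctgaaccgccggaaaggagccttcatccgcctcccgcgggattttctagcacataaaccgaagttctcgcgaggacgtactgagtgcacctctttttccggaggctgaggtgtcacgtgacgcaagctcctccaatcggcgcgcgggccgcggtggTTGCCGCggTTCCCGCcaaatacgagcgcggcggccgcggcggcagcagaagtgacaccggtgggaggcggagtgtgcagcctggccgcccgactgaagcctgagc
Mcm10: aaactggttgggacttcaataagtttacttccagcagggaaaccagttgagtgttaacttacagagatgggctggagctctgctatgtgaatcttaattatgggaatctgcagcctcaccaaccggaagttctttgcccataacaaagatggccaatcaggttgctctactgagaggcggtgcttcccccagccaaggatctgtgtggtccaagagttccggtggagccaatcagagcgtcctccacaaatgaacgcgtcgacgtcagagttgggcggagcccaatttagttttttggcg
In Mcm6 the core matched 5 times, with the first base of a match at -109, -106, -46, -43 and 25, counted from the start as base 1 with no base 0. In Uhrf1 there was 1 match, at -48, and in Chaf1a there were 2, at -56 and -47. The longer site counted for Uhrf1 lies in its other window, which is not printed. The Mcm10 window held no whole match and held CCAAT 3 times. Its last letters, ttggcg, are the start of the core TTGGCGC, and the base after the window was not read. Whether a core crosses that edge is therefore not known. A match of letters is a description and does not show that a factor binds there.

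The value of a gene below is its estimated count in a library after normalisation, and libraries held 11.1 to 30.9 M estimated reads in knockouts and 13.7 to 33.8 M in controls (M, megareads). Mettl3 itself averaged 99.5 ± 15.7 in knockouts and 223 ± 23.7 in controls (SD, n = 8 and 6), with no overlap between the groups and a log2 change of -1.17 (SE 0.12, adjusted p = 1.32e-05, limma). The labels gave no sex, but Xist and 4 Y-linked genes put replicates 1 to 4 of both groups into a Y-positive class and the other libraries, knockouts 5 to 8 and controls 5 and 6, into an Xist-high class. The class ran with depth, at 24.3 to 33.8 M estimated reads in Y-positive and 11.1 to 19.3 M in Xist-high libraries. Knockout libraries 3, 6 and 7 stood apart from the other knockouts. Their values of Cdkn1a, which encodes the cyclin-dependent kinase inhibitor p21, were 481, 520.4 and 549.6, while the other 5 knockouts had 49.9 to 162 and the controls 18.3 to 41.1. In knockouts 6 and 7 the mitochondrial protein-coding transcripts also took 7.85% and 7.91% of the summed values, against at most 5.47% in any other library. The counts over all replication genes are therefore given with and without these 3 libraries, as are the changes of the called ones, in the text or in the plot of changes with and without them. Hepatocyte markers had the highest summed value of the 8 marker lists in every library. Nothing in the labels says that the libraries came from separate litters or days, so p-values measure the spread between these libraries.

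Replication genes were more often higher than lower in Mettl3 knockout livers. Of the 51 that were tested, 20 rose, 3 fell and 28 were not called at an adjusted p of 0.05 (limma, adjusted over all 23554 genes tested). The 20 that rose were 39.2% of those tested, and over all genes 11.5% were called higher. The 3 that fell, Mcm10, Pola2 and Tk1, were 5.88%, and over all genes 11% were called lower. The median log2 change was 0.37 over the tested members and 0.05 over all genes tested, and 41 of 51 members had a change above 0. Every knockout library lay above every control library for 8 members (15.7%), namely Mcm2, Mcm6, Gins2, Pole, Rfc2, Rpa1, Fen1 and Chaf1a. Over all genes 4.14% were arranged so. Every knockout lay below every control for 1 member, Orc3, whose change was not called, and 4.02% of all genes were arranged so. Orc1, the largest subunit of the origin recognition complex, was not tested because its values were too low, at 0.359 to 9.61 in knockouts and 0.347 to 2.93 in controls. Of the 20 genes that rose, 9 changed at least 2-fold and 8 changed less than 1.5-fold.

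**Figure D1:**
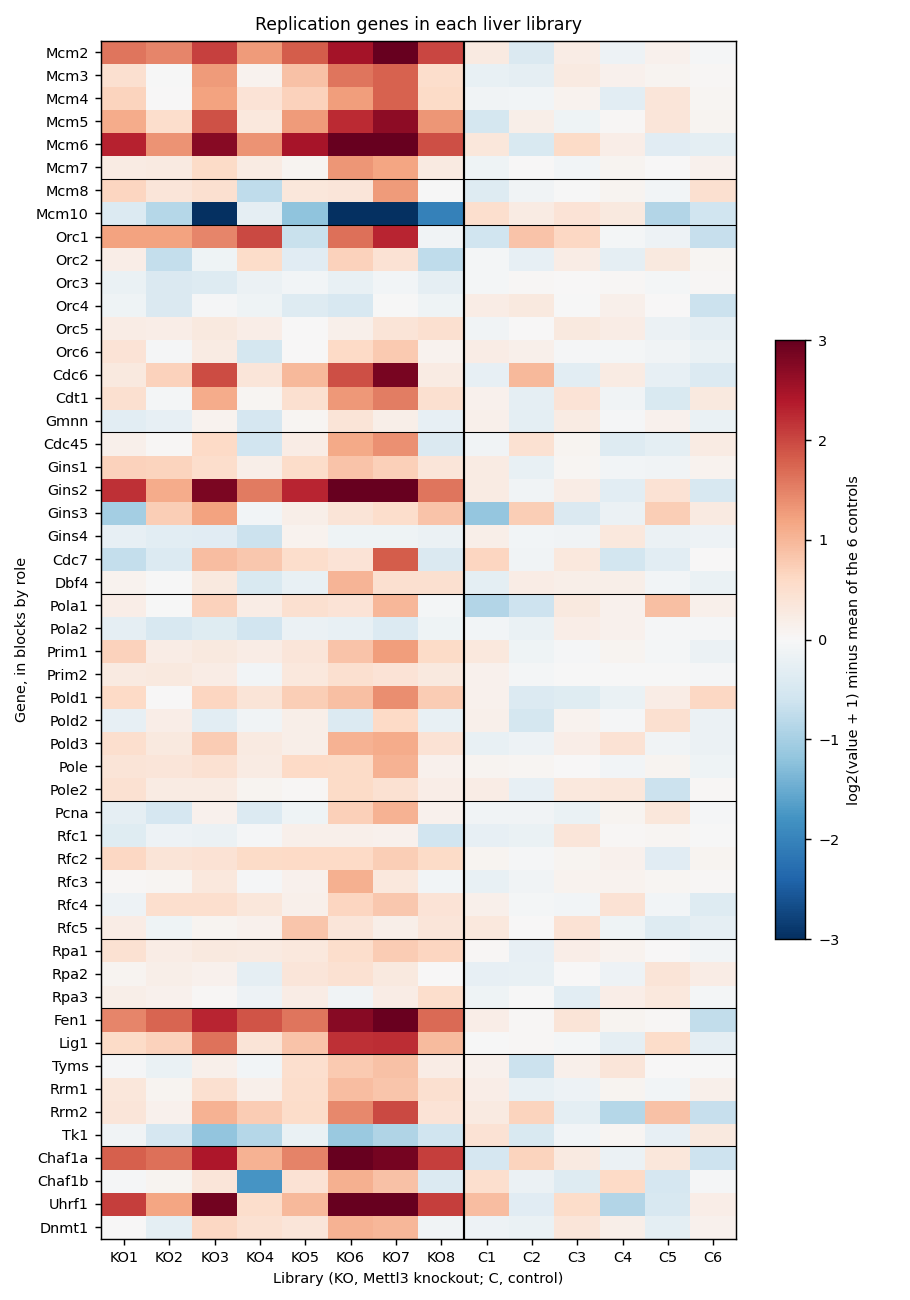
Each row is 1 of the 52 replication genes, in blocks by role, and each column is 1 liver library, with 8 Mettl3 knockouts left of 6 controls. Colour gives log2(value + 1) minus the mean of the 6 controls, with the scale ending at 3 in either direction. In the helicase, Okazaki and chromatin blocks the deepest red lies in knockouts 6 and 7, and in the row of Mcm10 the deepest blue lies in knockouts 3, 6 and 7.

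**Figure D2:**
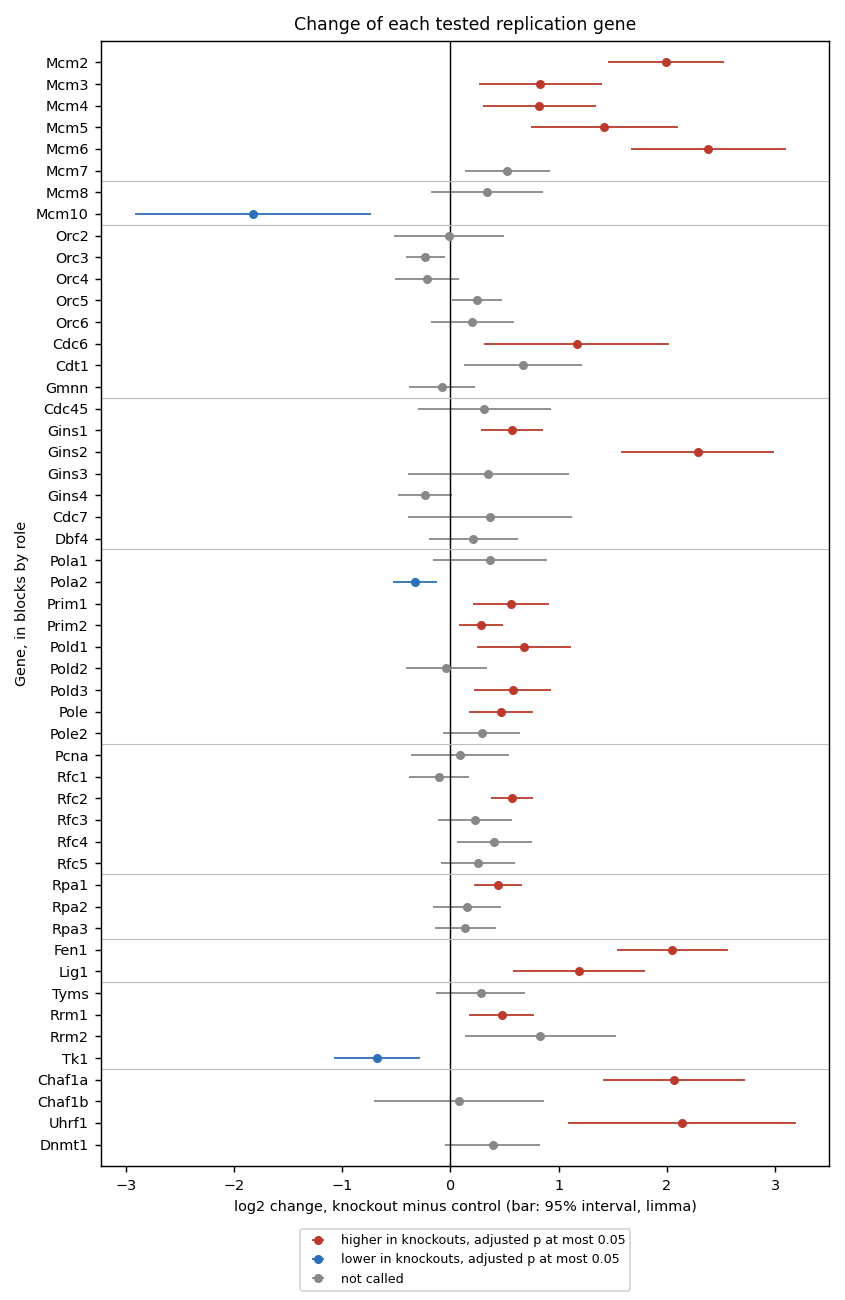
Points are the log2 change, knockout minus control, of the 51 tested genes and bars are 95% intervals from limma, coloured by call. The 20 genes higher in knockouts run from 0.28 for Prim2 to 2.38 for Mcm6, and the interval of Mcm10 lies wholly below 0, from -2.92 to -0.73.

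The size of the rise differed between knockout libraries. The highest knockout was library 6 or 7 for all 20 genes that rose and for 43 of the 51 tested members. The same was not counted over all genes, so the pattern may not be particular to replication genes. Relative to the control mean, the median log2 value of the 20 genes was 1.24, 1.44 and 1.77 in knockouts 3, 6 and 7, and 0.38 to 0.80 in the other knockouts. Knockout 4 was the lowest of all, with 9 of the 20 genes above every control, while the other knockouts had 13 to 20 of them there. The 20 genes were called over these same libraries, and such counts per library were not made over all genes. Without knockouts 3, 6 and 7, 11 of the 20 were called again, 9 were not, and all 20 had a smaller change, while over all genes 9.19% were then called higher. None of the 3 genes that fell was called without these libraries, where 9.24% of all genes were called lower. With values rescaled to equal sums outside ribosomal RNA genes, 33 members were called higher, where 33.3% of all genes were, and 1 was called lower, where 3.69% were. That rescaling moved the median change of all genes to 0.38. The q value in the authors' deposited table was at most 0.05 for 18 of the 20 genes that rose and 2 of the 3 that fell, where 8.82% of its 27865 tested genes passed as higher and 8.26% as lower.

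**Figure D3:**
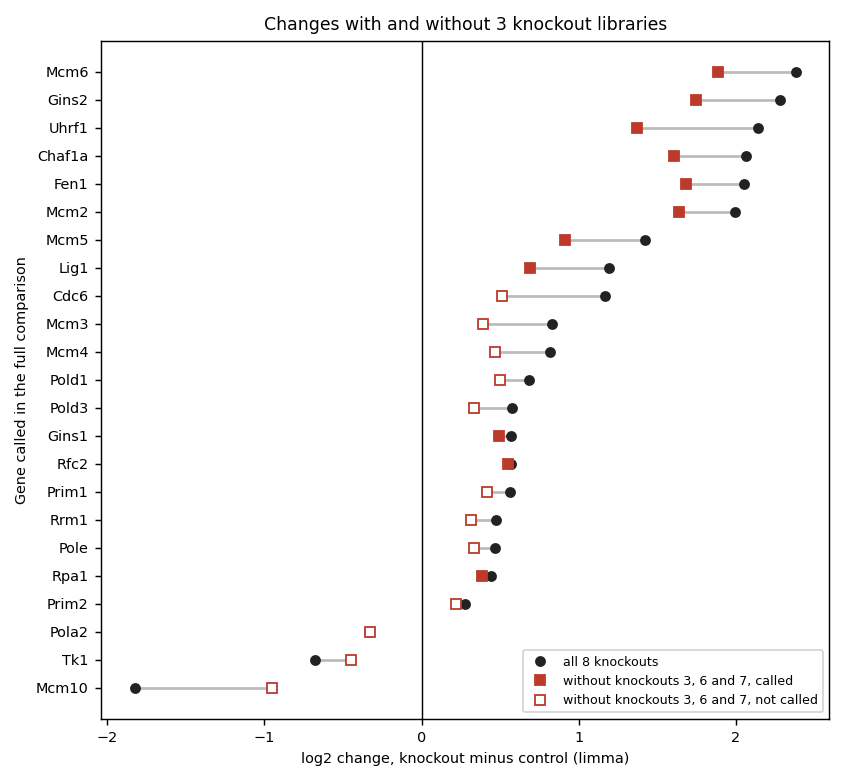
Black circles are the log2 change of the 23 called genes with all 8 knockouts and squares are the change without knockouts 3, 6 and 7, filled where still called. The 6 largest increases stayed at 1.37 or more and were called in both, whereas Cdc6 and Mcm10 moved furthest toward 0 among the genes that lost their call.

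Of the 6 subunits of the replicative helicase 5 rose, the exception being Mcm7. The median log2 change over the 6 was 1.13, or 0.69 without knockouts 3, 6 and 7. Mcm6, at chromosome 1 (128331590 to 128359664, GRCm38), had a lowest, median and highest value of 172, 358 and 861 in knockouts and 48.3, 66.0 and 99.8 in controls. Every knockout stood above every control, and its log2 change of 2.38 (SE 0.34, adjusted p = 0.000185) was the largest of the members. Mcm2, the subunit with an extended N-terminal tail that binds histones, had values of 103, 159.9 and 390.3 in knockouts and 30.6, 43.1 and 50.7 in controls. The groups did not overlap, and the log2 change was 1.99 (SE 0.25, adjusted p = 7.94e-05). For Mcm5, which forms the gate of the ring with Mcm2, values were 79.3, 158 and 412 in knockouts and 44.0, 66.2 and 81.6 in controls. Knockout 4 alone reached into the control range, 7 of 8 knockouts lay above every control, and the log2 change was 1.42 (SE 0.32, adjusted p = 0.00492). Mcm3 and Mcm4 rose by 0.83 and 0.82 (adjusted p = 0.0357 and 0.025). The call of Mcm4 was lost without control 4 (adjusted p = 0.0587), and that of Mcm3 was lost without any of controls 1, 2, 4, 5 and 6 or of knockouts 3, 6 and 7, with adjusted p of up to 0.0733. Without knockouts 3, 6 and 7 together, 3 of the 6 subunits were called, Mcm2, Mcm5 and Mcm6, while Mcm3 changed by 0.39 (adjusted p = 0.158) and Mcm4 by 0.47 (adjusted p = 0.126). Mcm7 had values of 153, 175 and 361 in knockouts and 131, 145 and 157 in controls, with a log2 change of 0.53 (SE 0.18, adjusted p = 0.0521). It passed the threshold without knockout 1, 4 or 5, at adjusted p of 0.0311 to 0.0492, and changed by 0.23 without knockouts 3, 6 and 7 (adjusted p = 0.114). Mcm7 also passed by the q value in the authors' table (0.0432) and with equal sums (adjusted p = 0.00649, limma). A pseudogene copy of it is listed in the table, so its reads may be split.

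Mcm10 fell where 5 subunits of the helicase ring rose. Mcm10 is a scaffold that helps start the assembled helicase and brings polymerase alpha to it; despite its name it is no part of the ring. The gene lies on chromosome 2 (4989714 to 5012791, GRCm38), and no other annotated gene shares its exons. Its values were 165, 677 and 1654 in knockouts and 1088, 2405 and 2807 in controls, a log2 change of -1.83 (SE 0.51, adjusted p = 0.0187). All 8 knockouts lay below the control mean, although the ranges overlapped. In Y-positive libraries taken alone the groups were separate, at 245 to 1654 in knockouts and 2377 to 2807 in controls. The same held in the Xist-high class, at 165 to 866 in knockouts and 1088 to 1315 in controls. In knockouts the classes overlapped, while in controls every Xist-high library lay below every Y-positive one. With the class as a covariate the change was -1.62 (adjusted p = 0.0128). Knockouts 3, 6 and 7 held its 3 lowest values, and without them the change was -0.95 (adjusted p = 0.0623). With log2 depth as a covariate it was -1.41 (adjusted p = 0.0525). Mcm8, which forms another helicase with Mcm9 and acts in recombination, changed by 0.34 (adjusted p = 0.348).

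Of the 8 tested genes of origin recognition and licensing only Cdc6 rose and none fell, with a median log2 change of 0.10. Cdc6, the ATPase that joins the origin recognition complex to load the helicase, had values of 17.9, 27.6 and 114 in knockouts and 11.0, 12.5 and 30.2 in controls. Of the 8 knockouts 4 stood above every control, and the log2 change was 1.17 (SE 0.40, adjusted p = 0.0485). This call rested on single libraries: it was lost without any of controls 1, 3, 4, 5 and 6 or knockouts 2, 3, 5, 6 and 7 (adjusted p of up to 0.095), and the change was 0.51 without knockouts 3, 6 and 7. Cdt1, the partner of Cdc6 in loading, changed by 0.67 (adjusted p = 0.073) and passed without knockout 2 or 4, and its change was 0.29 without knockouts 3, 6 and 7. Gmnn, the inhibitor of Cdt1, changed by -0.07 (adjusted p = 0.757). The origin recognition subunits spread on both sides of 0, at -0.01 for Orc2, -0.23 for Orc3, -0.22 for Orc4, 0.24 for Orc5 and 0.20 for Orc6, with none called. Orc2 had the largest adjusted p of the block (0.983), with values of 25.1, 44.8 and 70.7 in knockouts and 35.7, 43.4 and 53.7 in controls, and the 95% interval of its change ran from -0.52 to 0.50. The exons of Orc2 share 29.8% of their bases with Nif3l1 on the opposite strand, which rose by 0.59 (adjusted p = 0.019). Orc3 was lower in every knockout than in every control, at 147 to 187 in knockouts and 190.3 to 203 in controls (adjusted p = 0.0603), and its change was 0.10 with equal sums. It passed the threshold without knockout 5 (adjusted p = 0.0459), as did Orc4 without control 6 (adjusted p = 0.0369).

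Helicase activation was split within a single complex. GINS is a ring of 4 subunits that completes the active helicase with Cdc45 and the Mcm ring, and of its genes Gins2 and Gins1 rose while Gins3 and Gins4 were not called. Gins2 had values of 92.1, 202 and 479 in knockouts and 30.1, 44.2 and 57.5 in controls. All knockouts lay above all controls, and the log2 change was 2.28 (SE 0.33, adjusted p = 0.000238). Gins1 had values of 45.3, 62.1 and 74.2 in knockouts and 34.4, 39.7 and 48.0 in controls, a narrow range in both groups, with a change of 0.57 (SE 0.14, adjusted p = 0.00699). Gins3 had values of 16.6, 47.7 and 81.6 in knockouts and 15.0, 36.2 and 58.5 in controls, and its interval from -0.39 to 1.09 spans both no change and a rise of more than 2-fold. Gins4 changed by -0.24 (adjusted p = 0.162). The exons of Gins2, on chromosome 8 (120578633 to 120589304, GRCm38), share 67.3% of their bases with Gse1 on the opposite strand. Because the strand setting of the counting is not given in the sources used here, reads of such pairs cannot be told apart; Gse1 averaged 558 ± 145 in knockouts and 533 ± 143 in controls and changed by 0.07 (adjusted p = 0.824). Cdc45 changed by 0.31, Cdc7 by 0.37 and Dbf4 by 0.21, none of them called.

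Of the 9 polymerase and primase genes 5 rose and Pola2 fell. The catalytic subunits of the leading-strand and lagging-strand polymerases, Pole and Pold1, were both among those that rose, as were Pold3 and both primase subunits, Prim1 and Prim2. Pold1 had values of 73.4, 117 and 193 in knockouts and 54.2, 71.0 and 112 in controls, with overlap between the groups and a log2 change of 0.68 (SE 0.21, adjusted p = 0.026). For Pold3, an accessory subunit of polymerase delta, values were 226, 278 and 437 in knockouts and 172, 183 and 271 in controls, a change of 0.58 (SE 0.17, adjusted p = 0.0215). Prim1, which makes the RNA primer, had values of 86.3, 104 and 179 in knockouts and 65.8, 71.8 and 92.3 in controls, a change of 0.56 (SE 0.16, adjusted p = 0.0226). These increases were small: all 5 were at most 0.68 on the log2 scale, and none was called without knockouts 3, 6 and 7. Pole rose by 0.47 (adjusted p = 0.0241) and Prim2 by 0.28 (adjusted p = 0.0473). Several of the calls rested on single libraries. That of Pold1 was lost without control 2, 3 or 4 (adjusted p of 0.0583 to 0.0633), that of Pole without control 4 or 6 (0.0515 and 0.0507), and that of Prim2 without any 1 of 13 libraries, knockout 4 being the exception (adjusted p of up to 0.0843). Pola2, the regulatory subunit of polymerase alpha, fell by 0.33 (adjusted p = 0.0217), at 231 to 311 in knockouts and 298 to 392 in controls, and lost its call without control 3 or 4 (0.0566 and 0.0544) and with equal sums, where its change was 0.01. Pola1, its catalytic partner, changed by 0.37 (adjusted p = 0.32) and Pole2 by 0.29 (adjusted p = 0.237). Pold2, the member of the block with the largest adjusted p (0.902), had values of 84.4, 100.2 and 169 in knockouts and 77.5, 114 and 156 in controls.

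The sliding clamp was not called, while 1 subunit of its loader rose. Pcna encodes the clamp that tethers polymerases to DNA, and its protein is a common marker of proliferating cells. It had values of 311, 438 and 899 in knockouts and 385, 419.6 and 558 in controls. Knockouts 6 and 7, at 723 and 899, were the only libraries above the highest control, 4 of 8 knockouts lay above the control mean, and the change was 0.09 (SE 0.21, adjusted p = 0.811). Without knockouts 3, 6 and 7 it was -0.24 (adjusted p = 0.231). Its interval with all libraries, from -0.37 to 0.54, holds changes in either direction, and 2 pseudogene copies are listed in the table and may take some of its reads. Rfc2, a small subunit of the clamp loader, had values of 501, 578 and 644 in knockouts and 303, 406 and 422 in controls. It had the smallest standard error among the genes that rose, with no overlap, a log2 change of 0.57 (SE 0.09, adjusted p = 0.000496) and 0.55 without knockouts 3, 6 and 7. The exons of Rfc2 share 15.1% of their bases with Lat2 on the opposite strand, which averaged 22.9 ± 9.51 in knockouts and 24.8 ± 6.81 in controls. Rfc1, Rfc3, Rfc4 and Rfc5 changed by -0.11, 0.22, 0.40 and 0.25 and were not called; Rfc4 passed without knockout 1 (adjusted p = 0.0332), and Rfc4 and Rfc5 share 12.7% and 10.7% of their exonic bases with Eif4a2 and Wsb2.

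Of the 3 subunits of replication protein A, which coats single-stranded DNA, Rpa1 rose. Its values were 728, 824 and 1069.8 in knockouts and 526.1, 637 and 714 in controls, with no overlap and a log2 change of 0.44 (SE 0.10, adjusted p = 0.00726). Rpa2 and Rpa3 changed by 0.16 and 0.14 and were not called. Both genes of Okazaki fragment processing rose. Fen1, the nuclease that trims the flap left by primer displacement, had values of 235, 297 and 663 in knockouts and 50.02, 87.3 and 109 in controls. Every knockout lay more than 2-fold above the highest control, and the change was 2.05 (SE 0.24, adjusted p = 4.22e-05). Fen1, on chromosome 19 (10199132 to 10204169, GRCm38), shares 78.8% of its exonic bases with Gm10143 on the opposite strand, which averaged 31.3 ± 15.1 in knockouts and 31.4 ± 12.0 in controls. Lig1, the ligase that seals the fragments, had values of 270.0, 388 and 964 in knockouts and 169, 202 and 304 in controls. Every knockout but number 4 stood above every control, with a change of 1.19 (SE 0.29, adjusted p = 0.00777) and 0.69 without knockouts 3, 6 and 7.

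The genes of nucleotide supply went in different directions. Tk1, the thymidine kinase of the salvage pathway, had values of 261, 358 and 551 in knockouts and 432, 584 and 796 in controls. All 8 knockouts lay below the control mean and the ranges overlapped, with a log2 change of -0.68 (SE 0.19, adjusted p = 0.0168) and -0.45 without knockouts 3, 6 and 7 (adjusted p = 0.0969). With equal sums it was -0.34 and not called (adjusted p = 0.112). Rrm1, the large subunit of ribonucleotide reductase, had values of 117, 153 and 209 in knockouts and 95.1, 111 and 126 in controls, a change of 0.47 (SE 0.14, adjusted p = 0.024) whose call was lost without control 2 or 3 (0.0559 and 0.0545). Without knockouts 3, 6 and 7 it was 0.31 (adjusted p = 0.106). Rrm2, its regulated small subunit, changed by 0.83 and was not called (adjusted p = 0.0835), except without control 5 (adjusted p = 0.0447). Tyms, the thymidylate synthase, changed by 0.28 (adjusted p = 0.326), and a pseudogene copy of it is listed in the table.

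Behind the fork, Uhrf1 and Chaf1a rose while their partners were not called. Uhrf1, which reads hemimethylated DNA and recruits the maintenance methyltransferase, had values of 41.6, 125 and 482 in knockouts and 15.3, 28.1 and 56.1 in controls. Every knockout but number 4 lay above every control, and the log2 change was 2.14 (SE 0.50, adjusted p = 0.00619). Chaf1a, the large subunit of the assembly factor that places histones on new DNA, had values of 246, 454 and 1079 in knockouts and 76.7, 124 and 189 in controls. No knockout reached down to a control, with a change of 2.06 (SE 0.31, adjusted p = 0.000299). Chaf1a shares 52.5% of its exonic bases with Ubxn6 on the opposite strand, which fell by 0.49 (adjusted p = 0.00838). Dnmt1, the methyltransferase itself, changed by 0.39 (adjusted p = 0.194), at 637 to 1621 in knockouts and 636 to 1012 in controls. Chaf1b, the middle subunit of the same assembly factor, changed by 0.08 (adjusted p = 0.906).

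**Figure D4:**
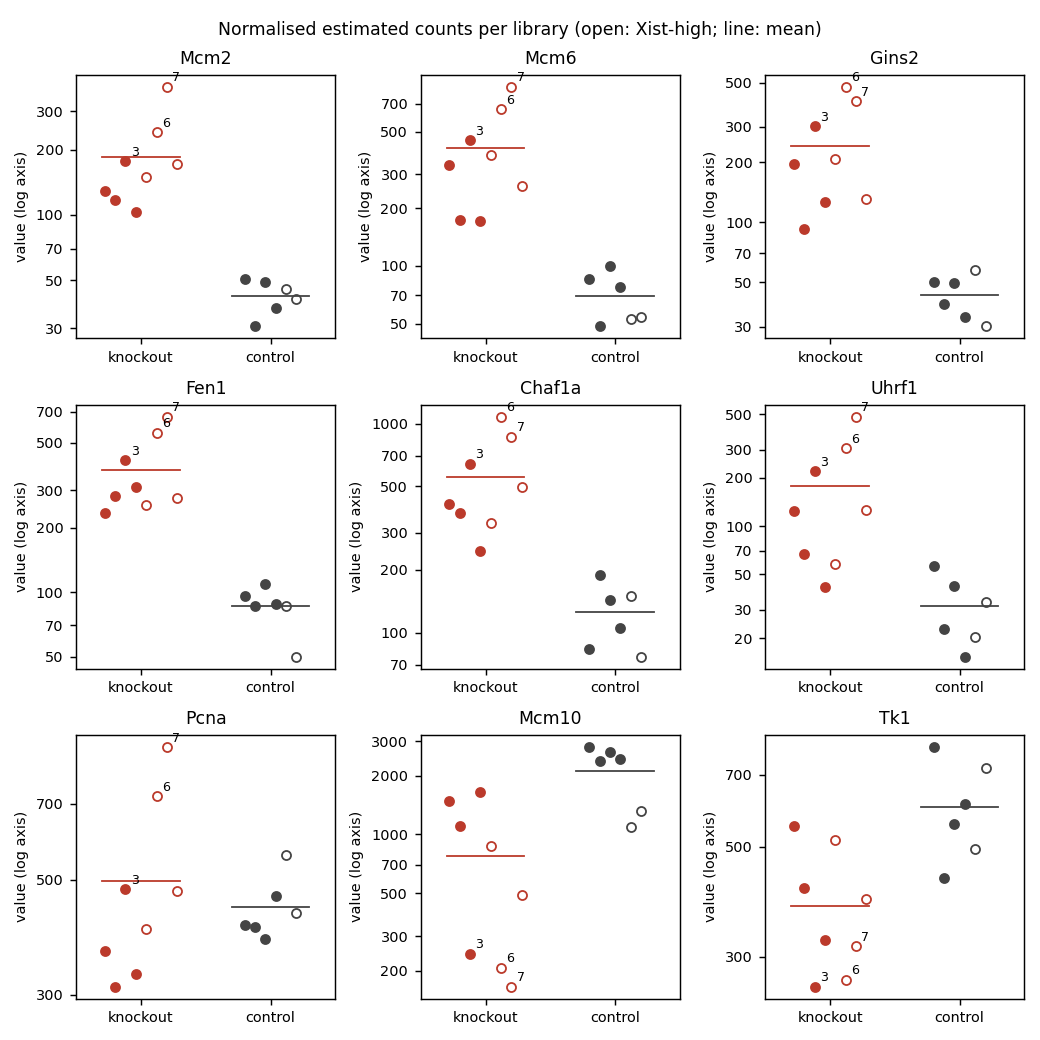
Each point is the value of 1 library on a log axis, with knockouts left of controls, open points for the Xist-high class, numbers beside knockouts 3, 6 and 7, and a line at the mean. Mcm2, Mcm6, Gins2, Fen1 and Chaf1a show no overlap between groups, Pcna passes the controls only in knockouts 6 and 7, and Mcm10 and Tk1 lie lower in knockouts.

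Levels were set beside each other roughly by dividing values by the length of the longest annotated transcript. The transcript expressed may be shorter, and reads may be shared with overlapping genes or pseudogene copies, so ranks and spreads between genes are rough. On this scale the mean value per kb in knockouts was highest for Pcna, at 328 ± 137 (SD, n = 8), and Mcm10 stood at place 8 with 159.6 ± 122. In controls Mcm10 was the highest of the 52 genes, at 434 ± 149 value per kb (SD, n = 6), above Rfc1 with 329 ± 51.1; these neighbours do not differ beyond their spread. The 6 helicase subunits, which sit in the ring in equal number, had mean values per kb that spread 10.6-fold in knockouts and 10.5-fold in controls between the highest and the lowest.

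**Figure D5:**
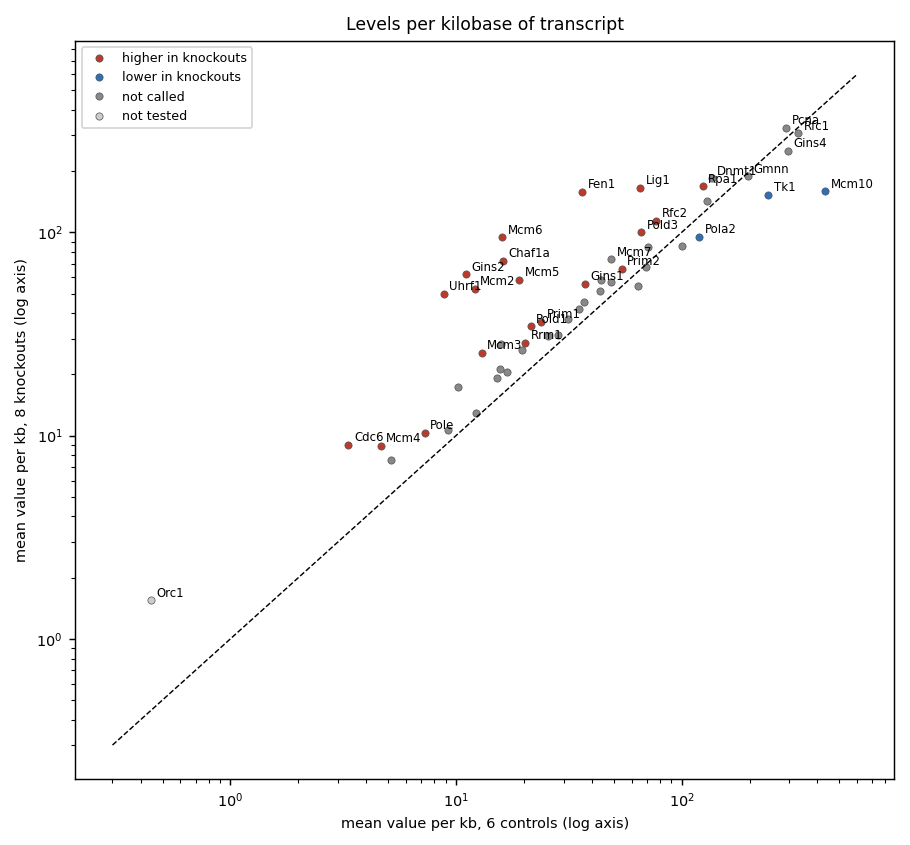
Mean values per kb of the longest transcript are plotted on log axes for the 52 genes, knockouts (n = 8) on the vertical axis against controls (n = 6) on the horizontal axis, with a dashed line of equality. Mcm10 is the rightmost point and lies well under the line, and Mcm6, Uhrf1, Gins2, Chaf1a, Mcm2 and Fen1 lie furthest above it.

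The genes that rose were also read within the classes of sex-linked transcripts. All 20 had a positive change in both classes, and 19 had the larger change in Xist-high libraries. These genes were called over the same libraries, so a shared direction was likely beforehand and is no separate test. In Xist-high libraries alone 3 of the 20 were called, where 0.73% of all genes were called higher, and in Y-positive libraries alone 7 were called, where 7.39% were. Of the 3 genes that fell, none was called in Xist-high libraries alone (0.2% of all genes called lower), and Pola2 was called in Y-positive libraries alone (8.3%). Mcm6 changed by 3.16 in Xist-high and 1.77 in Y-positive libraries, Fen1 by 2.60 and 1.68, and Mcm2 by 2.34 and 1.63. The difference itself was tested as an interaction of genotype and class. No member passed (smallest adjusted p 0.74, limma), 3 members had an unadjusted p under 0.05, namely Mcm6, Gins4 and Rfc5, and over all genes 0.0552% passed. An unadjusted p under 0.05 was reached by 1395 of the 23554 genes tested, so the members' 3 of 51 is close to the background. A p that misses the threshold does not show that the classes respond alike. Knockouts 6 and 7 belong to the Xist-high class and knockout 3 to the Y-positive class, and class and depth cannot be told apart.

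Other replication genes were read from lists of 28 factors of origin firing and the fork, 12 of nucleotide supply and chromatin assembly and 12 of S-phase control, all of them tested. Over the 3 lists together 7 of 52 genes rose and 3 fell, where 11.5% of all genes were called higher and 11% lower. The share that rose was thus near that of all genes. Of the 28 fork factors 5 rose and 1 fell, with a median log2 change of 0.25. Without knockouts 3, 6 and 7, 2 of the 28 were called higher and 2 lower, where 9.19% and 9.24% of all genes were. Hells, a chromatin remodeller of the SNF2 family, had values of 73.0, 142 and 461 in knockouts and 29.6, 35.8 and 52.1 in controls, with no overlap and a change of 2.10 (SE 0.35, adjusted p = 0.000725). Top2a, the topoisomerase that untangles copied DNA, had values of 19.3, 31.6 and 98.5 in knockouts and 14.1, 20.9 and 23.5 in controls, a change of 1.02 (adjusted p = 0.0476). That call was lost without any 1 control and without any of knockouts 3, 5, 6 and 7 (adjusted p of 0.0506 to 0.101), and the change was 0.41 without knockouts 3, 6 and 7. Dtl, the adaptor of the ligase that destroys Cdt1 in S phase, had values of 82.5, 106 and 198 in knockouts and 54.6, 61.0 and 69.8 in controls, with no overlap and a change of 0.91 (SE 0.18, adjusted p = 0.00203). Chtf8 and Atad5, which belong to alternative clamp loaders, rose by 0.41 and 0.48, and Top1, the topoisomerase that relaxes DNA ahead of the fork, fell by 0.39. The call of Chtf8 was lost without control 2, 3 or 6 (adjusted p of up to 0.0578) and that of Atad5 without controls 1, 4 or 6 or knockouts 3, 5 or 7 (up to 0.0802). In the list of nucleotide supply and chromatin assembly 1 of 12 rose and 1 fell. Mms22l, a partner of Tonsl at stalled forks, had values of 66.0, 99.0 and 158 in knockouts and 30.8, 43.9 and 93.1 in controls, a change of 1.03 (adjusted p = 0.00908), and 0.79 without knockouts 3, 6 and 7 (adjusted p = 0.0594). Nasp, a histone chaperone, had values of 221, 281 and 342 in knockouts and 333, 387 and 445 in controls, a change of -0.50 (adjusted p = 0.00663) that was -0.62 without knockouts 3, 6 and 7. In S-phase control 1 of 12 rose and 1 fell. E2f1, the E2F factor tied most closely to S-phase entry, had values of 154, 205 and 345 in knockouts and 77.3, 93.6 and 118 in controls. Its groups did not overlap and its change was 1.13 (SE 0.16, adjusted p = 0.000223). Cdk2, the kinase of cyclins E and A, had values of 188, 217 and 254 in knockouts and 241, 298 and 324 in controls, a change of -0.36 (adjusted p = 0.0172). The proliferation marker Mki67 and cyclin A2, Ccna2, changed by 1.32 and 1.01 and were not called (adjusted p = 0.0576 and 0.0624). Mki67 passed without knockout 4 or 5, and Ccna2 without knockout 2 or 5. Under equal sums the 3 genes that fell in these lists were not called, at -0.05 for Top1, -0.16 for Nasp and -0.02 for Cdk2.

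Marker lists of liver cell types moved beside these genes. In bulk liver, fewer cells of a type and less RNA per cell cannot be told apart. Of 10 hepatocyte markers 6 fell and none rose. Their summed value was 533793 to 834767 in knockouts and 859403 to 1002550 in controls, with the lowest sums in knockouts 6 and 7. The sum of all values was also lower in every knockout, at 16.8 to 20.7 M, than in every control, at 21.5 to 27.6 M. How far these totals account for the separation of the hepatocyte sums was not tested. The median change of the list was -0.64, or -0.30 with equal sums. With equal sums Alb, Cps1 and Hpd were still called lower, Ttr, Hnf4a and Ass1 were not called, and Cyp3a11 was called higher. Of 6 cholangiocyte markers 3 rose, namely Epcam, Sox9 and Spp1, and 2 were called without knockouts 3, 6 and 7. The list had summed values of 1073 to 3527 in knockouts and 697 to 1247 in controls. Knockouts 3, 6 and 7, which held the 3 highest knockout values of 12 of the 20 replication genes that rose, had the 3 highest cholangiocyte sums, at 3078, 2646 and 3527. How many of all genes had their 3 highest knockout values there was not counted. The same libraries also had the 3 highest lymphocyte sums among knockouts, at 686, 615 and 558. Their hepatocyte sums, at 617085, 543594 and 533793, were the 3 lowest. Their sums of all values, at 16.8, 17.9 and 18.5 M, were also the 3 lowest. In the remaining lists these libraries were not together the 3 highest or the 3 lowest knockouts. Krt19 and Krt7, defining keratins of bile duct cells, changed by 0.26 and 0.69 and were not called. Of 8 endothelial markers 2 fell, Kdr and Clec4g, neither called with equal sums. None of 8 Kupffer cell, 8 stellate cell, 8 tested lymphocyte, 3 tested neutrophil and 5 tested erythroid markers was called. Summed values of the Kupffer cell list were 5359.96 to 13688 in knockouts and 7959.8 to 10426 in controls, of the lymphocyte list 307 to 686 in knockouts and 390.4 to 515 in controls, and of the neutrophil list 54.9 to 182 in knockouts and 59.8 to 113 in controls. Those of the erythroid list were 2974 to 7264 in knockouts and 2795 to 10034 in controls, and those of the stellate list 1652 to 3179 in knockouts and 1868 to 2913 in controls. The endothelial list summed to 3927 to 7043 in knockouts and 5532 to 7053 in controls. No gene of these lists was at 0 in every library. The part of these markers in the changes of the replication genes was not tested.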

How the data were processed

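Liver total RNA of 8 knockout and 6 control mice was measured. Per the labels, libraries were made with a stranded Takara SMARTer Pico kit. Per the submitters' processing notes, kallisto and sleuth were used on mm10 (versions not given). The signal that the authors deposited per library was the estimated count divided by 1 size factor per library, as read from the values. It was not whole reads (27.9% to 29.8% of low values were whole within 0.02 of a read), so no count test was run, and depth came from these steps. From sleuth the authors deposited a p-value and q-value per gene, of which the q-value was an alternative. Their deposited change, a natural log, and their variance score columns were not used. After duplicate lines were removed, 23554 genes that reached a value of 10 in 6 or more libraries were tested with limma 3.58.1 in R 4.3.3 on log2(value + 1), knockout minus control, with Benjamini-Hochberg adjustment and a threshold of 0.05. Fold changes are on this scale, which understates changes of low genes. The pipeline was tested on simulated data. Members, lists and alternatives were chosen with earlier results of these data known. In each role block, values per library are given for the called genes with the largest changes, up to 3 or 2 by block size, and for the gene with the largest adjusted p in blocks of more than 4; in each other list, up to 3 called genes. Exon overlaps and positions came from GENCODE M21.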

Additional observations from a re-analysis of the deposited data

Results flagged for a closer look

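In 7 of 130 groups of libraries, 1 library lay far from the others of its group by Dixon's criterion, which chance meets in about 1 of 20 groups. The lowest knockout value of Prim2 was 126.4 in knockout 4, with the other knockouts at 156 to 186. Rfc3 was 178 in knockout 6, with the others at 79.9 to 105. Among controls, Orc4 was 256 in control 6, with the others at 395 to 488, and Fen1 was 50.02 in the same library, with the others at 86.1 to 109. Prim2 was 144 in control 1, with the others at 128 to 132, and Tyms was 89.2 in control 2, against 139 to 180.1. Mki67 was 34.1 in control 5, against 62.7 to 79.9 in the other controls. Without control 6, Fen1 kept its call, and Orc4 passed the threshold (adjusted p = 0.0369).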

How the results depend on the processing

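With equal summed values outside ribosomal RNA, the median change of all genes moved by 0.33 to 0.38; members exceeded that median by 0.31 under both scalings. There, 33 members were higher and 1 lower, 27 and 0 of the other replication genes, and 7836 and 868 of all genes; Mcm10 kept its call, Tk1 did not, and the signs of Gins4 (0.10), Gmnn (0.26), Orc2 (0.32), Orc3 (0.10), Orc4 (0.12), Pola2 (0.0070), Pold2 (0.30) and Rfc1 (0.23) turned. At a threshold of 0.01, 11 members were higher and 0 lower, 4 and 1 of the other replication genes, and 1311 and 1358 of all genes. Requiring 1.5-fold left 12 members higher, 0 other replication genes lower and 1371 of all genes lower. No filter left 4 other replication genes higher. Without knockouts 3, 6 and 7, 11 members were higher and 0 lower, with 3 other replication genes higher, and negative values came for Cdc45 (-0.12), Cdc7 (-0.049), Chaf1b (-0.34), Dbf4 (-0.0225), Orc6 (-0.0034) and Pcna (-0.24). Y-positive libraries alone gave 7 members higher and 1 lower, 4 other replication genes higher and 1740 of all genes higher, with the signs of Chaf1b (-0.47), Dbf4 (-0.088), Orc2 (0.067), Orc6 (-0.045), Pcna (-0.18), Rfc5 (-0.092) and Tyms (-0.035) turned. Xist-high libraries alone gave 3 members higher and 0 lower, 0 and 0 of the other replication genes, 172 and 47 of all genes, and Mettl3 at -1.03 (adjusted p = 0.0717); Gins3 (-0.025), Gins4 (0.0699), Gmnn (0.14), Orc4 (0.0701), Pola1 (-0.073) and Rpa2 (-0.023) turned. Depth as a covariate left 12 members and 4 other replication genes higher, with Chaf1b at -0.053 and Pcna at -0.086. Quantile normalization gave Chaf1b -0.093 and Rfc1 0.017, and a pseudocount of 10 gave Orc2 0.0040. Leaving out each library gave 14 to 22 members higher and 2 to 4 lower, 4 to 9 and 3 to 4 of the other replication genes (4 without control 6), 2189 to 2863 and 2039 to 2792 of all genes, 0 interactions and Mettl3 from -1.21 to -1.12; Chaf1b ran from -0.064 to 0.34, Orc2 from -0.11 to 0.10, Pcna from -0.049 to 0.17 and Pold2 from -0.14 to 0.057. The cause of these moves was not tested. Of the 23 calls, 23 were kept with pseudocounts of 0.1 and 0.5, 21 with the class as a covariate and 20 by the authors' q value. Under all 32 settings Mcm2, Mcm6 and Fen1 stayed called as higher.

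Same-numbered libraries had correlated deviations of 0.0707 to 0.228 over replicates 1 to 6, and a knockout was best matched by its own number in replicates 1, 2 and 3 only, so the numbers were not taken to pair the mice. With the replicate number as a block, in which knockouts 7 and 8 drop out for want of a partner, 12 members were higher and 1 lower, 4 other replication genes were higher, and Orc2 (0.041) and Pcna (-0.076) turned.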

Other observations

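Of the 28 replication genes not called, 13 had a 95% interval that lay within 1.5-fold in both directions, and 4 had one that reached a 2-fold change. Of the genes that rose, 16 were higher in 8 of 8 knockouts than the control mean, and 4 in 7 of 8. These genes were called over the same libraries, so this was likely beforehand and is no separate test. The same was not counted over all genes.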
